A study of Mus musculus with 6 samples.

Results

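The Frizzled receptors, the 10 genes Fzd1 to Fzd10, were measured in mouse esophagus and stomach organoids on 6 arrays. Members were taken by gene name alone, as every non-control probe that the array files assign to one of the 10 symbols. This gave 13 of the 55681 distinct non-control probes and 10 of the 34298 gene names on the array. Fzd2, Fzd5 and Fzd7 had 2 probes each and every other member had 1. A probe here is a strand of 60 bases that captures one transcript, and its value is a log2 intensity after the authors' background correction and quantile normalization.

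Organoids are epithelial cultures grown from tissue cells in a gel. The 3 esophagus arrays (labelled squamous) and the 3 stomach arrays (labelled columnar) carried RNA of organoids at passage 0. Both tissues bore the numbers 1, 2 and 4, read here as the same 3 mice. All arrays were labelled as controls. Harvest was on day 8, except that the stomach culture of mouse 4 was taken on day 7. By the culture methods, stomach organoids were started from glands of the corpus and grown with WNT3A- and R-spondin1-conditioned medium and gastrin. By the same methods, esophagus organoids were started from dissociated cells and grown without these 3 additions, with forskolin. The array titles name no medium, and the paper also grew esophagus organoids with WNT3A and R-spondin1. Both media held EGF, noggin, FGF-10, a TGF-β receptor kinase inhibitor and a ROCK inhibitor. With these recipes tissue of origin and medium changed together, so their parts in any difference cannot be told apart. The labels state neither strain, sex nor age for these mice, while the methods give female C57BL/6 animals as the wild-type mice of the study without tying them to these cultures.

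Frizzled proteins are receptors that span the cell membrane and bind WNT ligands through a cysteine-rich domain outside the cell. With the co-receptors LRP5 and LRP6 they recruit Dishevelled and keep β-catenin from being degraded, and with other partners they orient cells within the plane of an epithelium. The membrane ubiquitin ligases RNF43 and ZNRF3 remove Frizzled receptors from the cell surface, and R-spondins, bound by LGR4 to LGR6, hold these ligases back. WNT signals maintain stem cells in the glands of the stomach.

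The organoids carried the markers of their labels. Krt5, a keratin of the basal squamous layer, had a mean log2 value of 17.08 in esophagus and 5.14 in stomach organoids. Tff1, a secreted peptide of gastric surface cells, had 5.54 in esophagus and 17.88 in stomach organoids. All 6 squamous markers were well above background on every esophagus array and all 8 columnar markers on every stomach array. The summed signal of the squamous markers was 345900 to 448700 in esophagus and 1790 to 3410 in stomach organoids, and that of the columnar markers was 2610 to 7479 in esophagus and 657600 to 681500 in stomach organoids. Of the 4 probes of the squamous marker Trp63, 3 had means of 10.43 to 12.95 in esophagus organoids and were on no stomach array well above background, while the fourth had 9.99 in esophagus and 11.20 in stomach organoids. The sums take the brightest probe of each gene, and for Trp63 this was the fourth probe. In stomach organoids the squamous sum was therefore mostly this probe, since the other squamous markers had mean log2 values of 4.85 to 5.69 there. Arrays correlated across probes at 0.979 to 0.985 within esophagus, 0.986 to 0.994 within stomach and 0.923 to 0.940 between tissues. The share of spots well above background was 45.5% to 51.1% per array, and no spot was saturated. The stomach array of mouse 4 stood apart. Over the 25835 probes well above background in a tissue and measured on all arrays, it was the stomach array nearest to the esophagus mean for 46.6%, against 27.7% and 25.5% for stomach arrays 1 and 2. Its earlier harvest moves with this, and the part of the harvest day in the results was not tested.

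Among the Frizzled probes, 4 were higher in esophagus organoids (Fzd1, Fzd2, Fzd6 and Fzd10), 2 were higher in stomach organoids (Fzd4 and Fzd5) and 7 did not pass the test. The test was limma's moderated comparison of 3 against 3 arrays at an adjusted p under 0.05, with Benjamini-Hochberg adjustment over all 55681 probes. Over all probes, 5.94% were called higher in esophagus and 6.22% higher in stomach organoids. A probe was taken as detected where the software marked its spots well above background on each of the 3 arrays of at least 1 tissue. Over detected probes these shares were 12.2% and 12.9%, and 11 of the 13 Frizzled probes were in this class, among them all 6 that were called. The median log2 difference (esophagus minus stomach) over the brightest probes of the 10 genes was 0.75, beside 0.03 over all gene names and 0.06 over those detected. The values of the arrays did not overlap between tissues for 7 Frizzled probes with esophagus above and for 3 with stomach above. Over all probes measured on 6 arrays this held for 15.2% and 13.4%. At the methods' thresholds, an unadjusted p under 0.05 and 1.5-fold, 5 Frizzled probes were higher in esophagus and 3 in stomach organoids, with Fzd9 and Fzd5 probe A_51_P166456 added, beside 9.28% and 8.85% of all probes. These are bulk cultures, in which fewer cells of a type and less RNA per cell cannot be told apart.

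**Figure D1:**
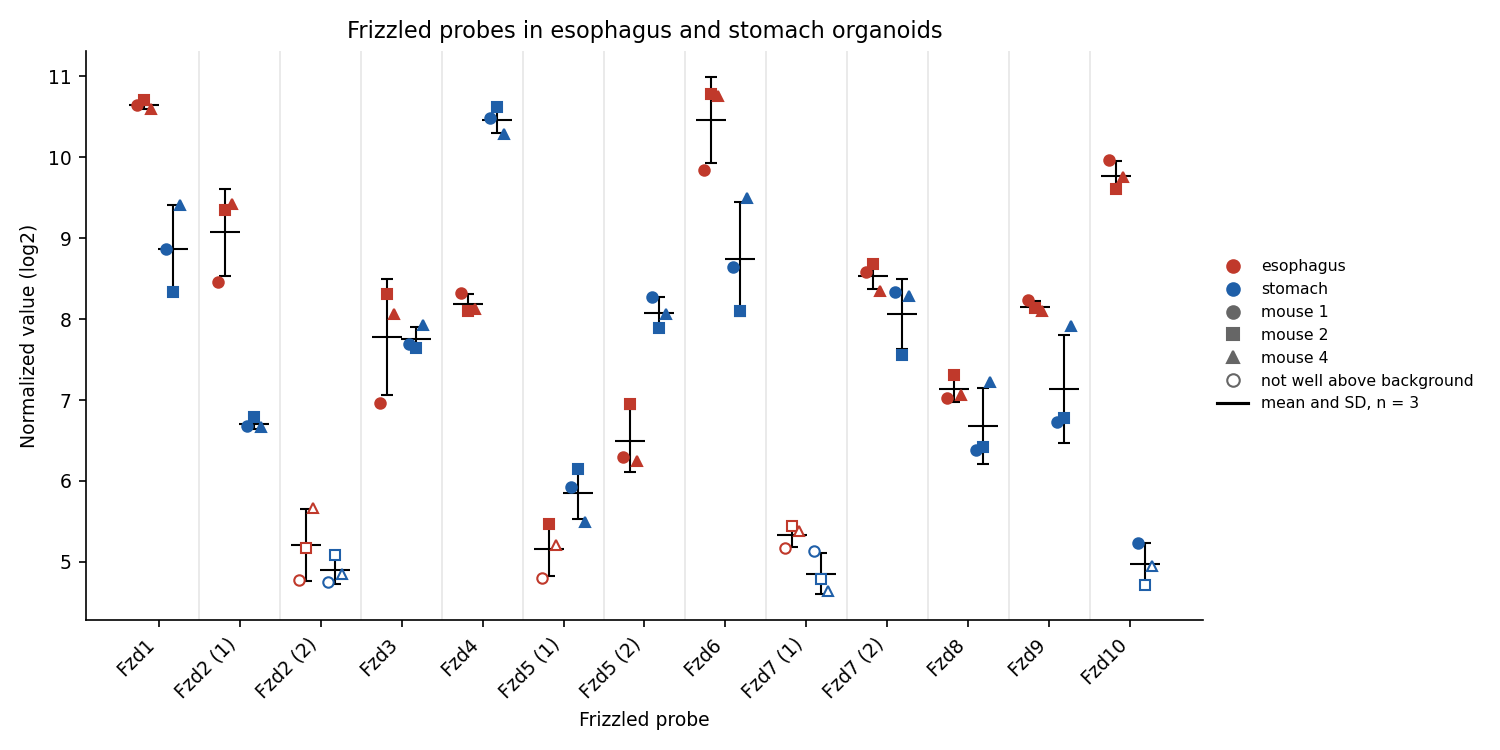
Normalized log2 value of each Frizzled probe (horizontal axis) on each of the 6 arrays, with red for esophagus, blue for stomach, marker shape for the mouse, open markers where the spot was not well above background, and black bars for the mean and SD of 3 arrays. Fzd2 (1) is probe A_51_P404077, Fzd2 (2) A_52_P129428, Fzd5 (1) A_51_P166456, Fzd5 (2) A_66_P128199, Fzd7 (1) A_51_P142107 and Fzd7 (2) A_52_P552665; Fzd10 and Fzd4 show the widest separation in opposite directions. Heights are not comparable between probes.

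Fzd10 showed the widest difference of the family. This receptor is known to signal through β-catenin. Its probe A_52_P203560 (mm9 chromosome 5, 129109798 to 129109857, plus strand) read 9.97, 9.60 and 9.75 in esophagus organoids of mice 1, 2 and 4, and 5.24, 4.71 and 4.95 in stomach organoids of the same mice. All esophagus values were well above background, but among the stomach arrays only that of mouse 1 was. The log2 difference was 4.81 ± 0.19 (SE, n = 3 per tissue; 95% interval 4.37 to 5.24), with an adjusted p of 2.26e-06 in limma. The difference within a mouse was 4.73, 4.89 and 4.80. Since 2 of the 3 stomach values were not well above background, the fold has no firm size. It was 28.0 in the authors' values and 13.7 to 163.2 with the background treated in other ways, and the difference, 3.78 to 7.35 on the log2 scale, passed the threshold in each.

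Fzd4 went the other way. It serves as the receptor of Norrin, with the co-receptor LRP5 and the tetraspanin TSPAN12, and also binds WNT ligands. Probe A_51_P361220 (mm9 chromosome 7, 96557478 to 96557537, plus strand) read 8.32, 8.10 and 8.12 in esophagus organoids and 10.48, 10.62 and 10.29 in stomach organoids. The spot was well above background on all 6 arrays, and the tissues were apart in each mouse. Fzd4 was 4.87-fold higher in stomach organoids, with a log2 difference of -2.28 ± 0.16 (SE; 95% interval -2.65 to -1.92) and an adjusted p of 5.51e-05 in limma. The SD over 3 arrays was 0.12 in esophagus and 0.17 in stomach organoids, and the difference stayed between -2.37 and -2.09 under every alternative run.

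The start regions of these 2 genes are shown because they are the members that differed most in opposite directions. RefSeq promoter windows (GRCm38.p6) were found for 6 of the 10 members, namely Fzd1, Fzd4, Fzd5, Fzd7, Fzd9 and Fzd10. The 250 bases before each start were searched on both strands for 4 motifs. The TCF core, read by TCF and LEF factors at WNT target genes, was CTTTGA. The GC box, read by SP factors, was GGGCGG. The TATA box, at which transcription can be initiated, was TATAAA. The fourth motif, read by NF-Y, was CCAAT, and no motif holds another. The window of Fzd10 lies at chr5:128600856-128601105 and that of Fzd4 at chr7:89404116-89404365, both on the plus strand, and capitals mark every match.
Fzd10: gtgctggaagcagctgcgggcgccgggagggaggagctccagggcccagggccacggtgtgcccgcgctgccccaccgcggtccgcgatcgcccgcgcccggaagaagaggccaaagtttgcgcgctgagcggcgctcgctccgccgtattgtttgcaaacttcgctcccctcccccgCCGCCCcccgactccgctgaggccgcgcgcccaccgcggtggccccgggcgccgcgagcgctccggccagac
Fzd4: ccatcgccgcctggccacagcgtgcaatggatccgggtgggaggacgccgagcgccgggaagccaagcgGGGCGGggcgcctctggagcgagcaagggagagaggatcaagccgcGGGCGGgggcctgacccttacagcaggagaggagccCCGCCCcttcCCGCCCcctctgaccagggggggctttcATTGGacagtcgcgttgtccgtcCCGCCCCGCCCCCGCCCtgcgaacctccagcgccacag

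The Fzd10 window held 1 GC box and none of the other 3 motifs, and the Fzd4 window held 7 GC boxes and 1 match to the NF-Y motif. GC boxes were found in 5 of the 6 Frizzled windows, against 32.7% of all 32851 RefSeq windows of this length, with 9 in Fzd5 and 6 in Fzd7. The NF-Y motif was found in 3 of 6, against 33.8%. The TCF core and the TATA box were each found once, both in the window of Fzd1, against 13.8% and 12.4% of all windows. The share of G and C was 76.4% for Fzd5, Fzd9 and Fzd10, 72.8% for Fzd4, 65.2% for Fzd7 and 51.2% for Fzd1, beside a median of 52.4% over all windows. High shares of G and C were thus found both in Fzd10, called higher in esophagus organoids, and in Fzd4 and Fzd5, called higher in stomach organoids. A match describes letters in these windows and no binding was measured.

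Fzd1 and Fzd2 are close relatives within the family, together with Fzd7, and all 3 are known to pass WNT signals to β-catenin. Fzd1 probe A_52_P597634 (mm9 chromosome 5, 4754003 to 4754062, minus strand) read 10.65, 10.71 and 10.59 in esophagus organoids and 8.86, 8.34 and 9.41 in stomach organoids. The esophagus values lay within an SD of 0.06, while the stomach values spread with an SD of 0.54 and all stayed below them. Fzd1 was 3.44-fold higher in esophagus organoids (log2 difference 1.78 ± 0.26, SE; adjusted p = 0.00335 in limma), and without the stomach array of mouse 4, the highest of the 3, the difference was 2.05.

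Fzd2 probe A_51_P404077 (mm9 chromosome 11, 102467613 to 102467672, plus strand) read 8.45, 9.35 and 9.42 in esophagus organoids and 6.67, 6.79 and 6.67 in stomach organoids. Here it was the esophagus arrays that spread (SD 0.54), with mouse 1 the lowest, and the stomach arrays that lay close together (SD 0.07). The difference was 2.37 ± 0.26 (SE), a 5.15-fold higher value in esophagus organoids, with an adjusted p of 0.000770 in limma. The second Fzd2 probe, A_52_P129428, was on no array well above background and so gave no measure of the tissues (difference 0.31, adjusted p = 0.515). With the values of both probes averaged the difference fell to 1.34, still past the threshold (adjusted p = 0.0112).

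Fzd7 did not pass the test on either probe. Probe A_52_P552665 (mm9 chromosome 1, 59543192 to 59543251, plus strand) read 8.58, 8.68 and 8.35 in esophagus organoids and 8.33, 7.56 and 8.29 in stomach organoids. The lowest esophagus value and the highest stomach value were nearly equal, and the difference was 0.48 ± 0.23 (SE; 95% interval -0.07 to 1.02; adjusted p = 0.275). The interval runs from just below 0 to about 1 log2 unit. The other Fzd7 probe, A_51_P142107, was on no array well above background. With quantile normalization of the software's background-subtracted signal this dim probe was called higher in esophagus organoids (1.65, adjusted p = 0.0451), the only alternative in which it was.

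The dim Fzd7 probe and the called Fzd2 probe are shown side by side because the 2 genes share this stretch. In the best ungapped alignment 42 of 50 aligned bases were identical (84%), with a longest run of 14, against at most 26 identical bases in any other of the 78 pairs of Frizzled probes. Both sequences are written 5′ to 3′ as on the array, with capitals for the bases that are the same in both.
Fzd2 A_51_P404077: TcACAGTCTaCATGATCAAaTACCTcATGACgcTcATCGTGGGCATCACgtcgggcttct
Fzd7 A_51_P142107: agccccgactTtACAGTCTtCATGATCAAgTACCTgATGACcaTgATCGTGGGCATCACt

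On the esophagus arrays the Fzd2 probe was well above background on all 3, and the Fzd7 probe that carries these shared bases on none. Each of these sequences has a reading frame without a stop codon. Of the 13 Frizzled probes, 3 had a stop codon in all 3 frames (Fzd1, Fzd10 and A_52_P552665 of Fzd7), so that no open frame runs through the whole probe.

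Fzd5 was called higher in stomach organoids. It signals through β-catenin and has known roles in the gut epithelium. Probe A_66_P128199 (mm9 chromosome 1, 64779479 to 64779538, minus strand) read 6.30, 6.95 and 6.24 in esophagus organoids and 8.27, 7.89 and 8.07 in stomach organoids. The highest esophagus value, that of mouse 2, stayed below the lowest stomach value, also of mouse 2, and the difference was smallest in that animal (-0.95, against -1.98 in mouse 1 and -1.82 in mouse 4). The value was 2.99-fold higher in stomach organoids (log2 difference -1.58 ± 0.22, SE; adjusted p = 0.00283 in limma). The other Fzd5 probe, A_51_P166456 (64781972 to 64782030 on the same chromosome and strand), read 4.80, 5.47 and 5.21 in esophagus and 5.93, 6.14 and 5.49 in stomach organoids. It lay well above background on 1 esophagus array and on all 3 stomach arrays, its tissues did not overlap, and its difference of -0.70 ± 0.24 (SE) did not pass the test (adjusted p = 0.110). Both Fzd5 probes were lower in esophagus organoids in each of the 3 mice.

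Fzd3 and Fzd6 are the members best known for planar cell polarity, the alignment of cells within a sheet. Fzd6 probe A_52_P217710 (mm9 chromosome 15, 38869107 to 38869166, plus strand) read 9.84, 10.78 and 10.76 in esophagus organoids and 8.65, 8.10 and 9.49 in stomach organoids. The gap between the lowest esophagus and the highest stomach value was small beside the SD of 0.54 and 0.70 within the tissues. Fzd6 was 3.29-fold higher in esophagus organoids (log2 difference 1.72 ± 0.39, SE; 95% interval 0.81 to 2.62; adjusted p = 0.0268 in limma), the largest adjusted p of the 6 called probes. This call held without esophagus 1 or stomach 4 and was lost in the other 4 cases with 1 array left out, with an adjusted p of 0.0931 without esophagus 2, 0.0709 without esophagus 4, 0.108 without stomach 1 and 0.0959 without stomach 2, although the difference kept its direction (1.39 to 2.09 over all alternatives).

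Fzd3 probe A_55_P2266295 (mm9 chromosome 14, 65854084 to 65854142, minus strand) read 6.97, 8.31 and 8.06 in esophagus organoids and 7.70, 7.64 and 7.92 in stomach organoids. The esophagus arrays lay on both sides of the stomach arrays, and mouse 1 differed in the opposite direction (-0.73) from mice 2 (0.67) and 4 (0.14). The difference was 0.03 with a 95% interval of -0.74 to 0.80 (adjusted p = 0.975), wide enough to hold a change of either sign. Its sign changed between alternatives, scaling included.

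Fzd8 and Fzd9 did not pass, and for both it was the stomach array of mouse 4 that lay nearest to the esophagus arrays. Fzd9 is known from brain, bone and blood cell development, and Fzd8 as a receptor able to form β-catenin-activating complexes with LRP6. Fzd9 probe A_51_P511015 (mm9 chromosome 5, 135724815 to 135724874, minus strand) read 8.23, 8.14 and 8.10 in esophagus organoids and 6.73, 6.77 and 7.91 in stomach organoids. All 3 esophagus values were above all 3 stomach values, with a difference of 1.02 ± 0.31 (SE; adjusted p = 0.0793), which became 1.41 without stomach 4 (adjusted p = 0.00149). Fzd8 probe A_55_P2035804 read 7.02, 7.32 and 7.06 in esophagus organoids and 6.39, 6.43 and 7.22 in stomach organoids. Its tissues overlapped through stomach 4, and the difference was 0.46 ± 0.24 (SE; adjusted p = 0.322), or 0.73 without stomach 4 (adjusted p = 0.0340).

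**Figure D2:**
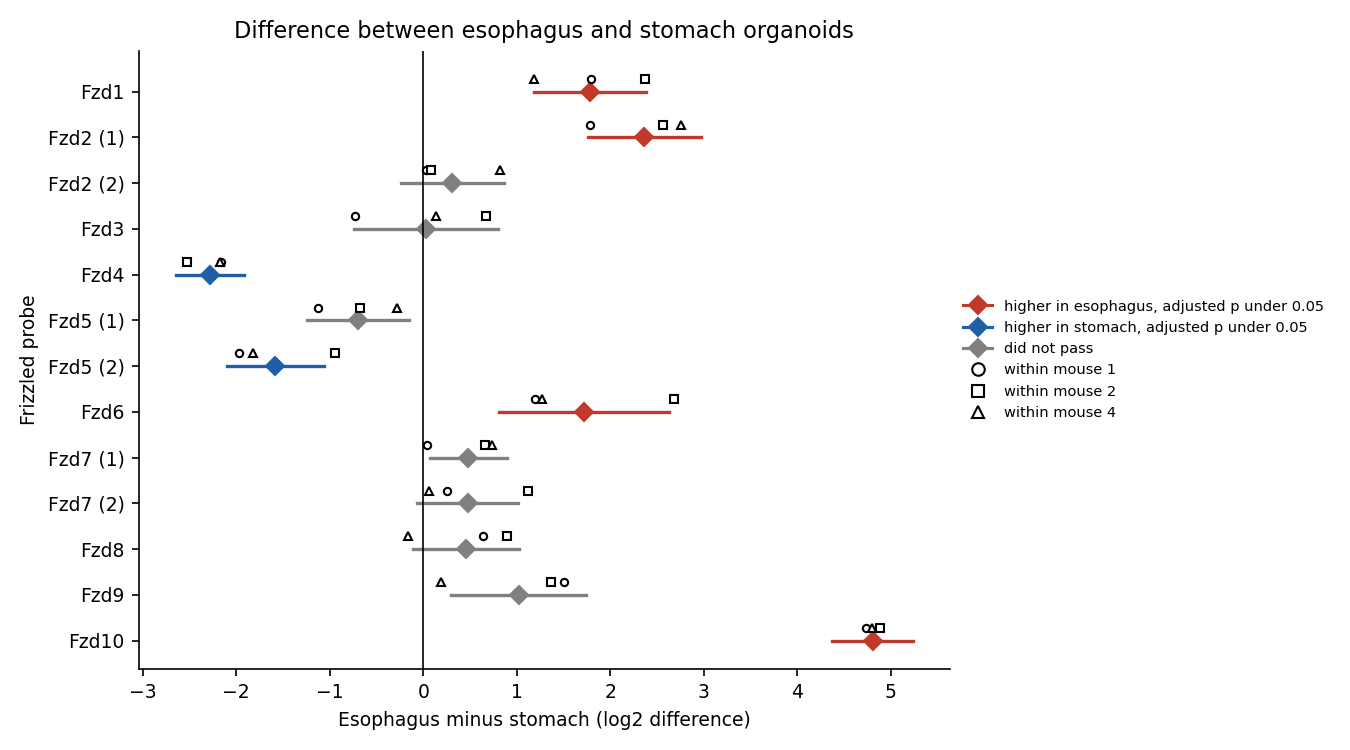
Difference between esophagus and stomach organoids of each Frizzled probe in log2 units (horizontal axis), with diamonds for the limma estimate over 3 arrays per tissue, lines for its 95% interval and open markers for the difference within each mouse; probes are numbered as in the plot of values. Fzd10 at 4.81 and Fzd4 at -2.28 mark the ends, and the intervals of Fzd3, Fzd8, Fzd2 (2) and Fzd7 (2) cross 0.

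Variation between arrays of a tissue was not shared by all members. Over the 11 detected Frizzled probes, stomach 4 was the highest of the 3 stomach arrays for 5 (Fzd1, Fzd3, Fzd6, Fzd8 and Fzd9), and it lay 0.54 above the mean of its tissue for Fzd1, 0.75 for Fzd6, 0.54 for Fzd8 and 0.78 for Fzd9. For Fzd4 it lay at -0.17 from that mean, and for Fzd10 and the brighter Fzd5 probe at -0.01. Esophagus 1 was the lowest of the esophagus arrays for 5 of the 11, at -0.81 from the mean for Fzd3 and at -0.62 for Fzd2 and for Fzd6. It was the highest for Fzd4, Fzd9 and Fzd10. Of the 11 probes, esophagus 2 was the highest of its tissue for 7 and stomach 2 the lowest for 6. Esophagus 1 also had the highest summed signal of 5 immune cell markers among the esophagus arrays (28510, against 8306 and 4081). Stomach 4 had the highest among the stomach arrays (5889, against 2590 and 3025). Both sums were mostly Cd68, and the other markers did not follow as a set. On esophagus 1, 2 and 4 Cd3e read 7.39, 7.23 and 7.55, and the brightest Csf1r probe 8.03, 7.78 and 8.01. On stomach 1, 2 and 4 Cd3e read 7.35, 7.97 and 8.34, and that Csf1r probe 8.03, 8.35 and 7.97. The part of these markers in the Frizzled values was not tested. Without stomach 4 the probes called higher in esophagus organoids were 6 in place of 4, with Fzd8 and Fzd9 added, and those called higher in stomach organoids were still Fzd4 and Fzd5.

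**Figure D3:**
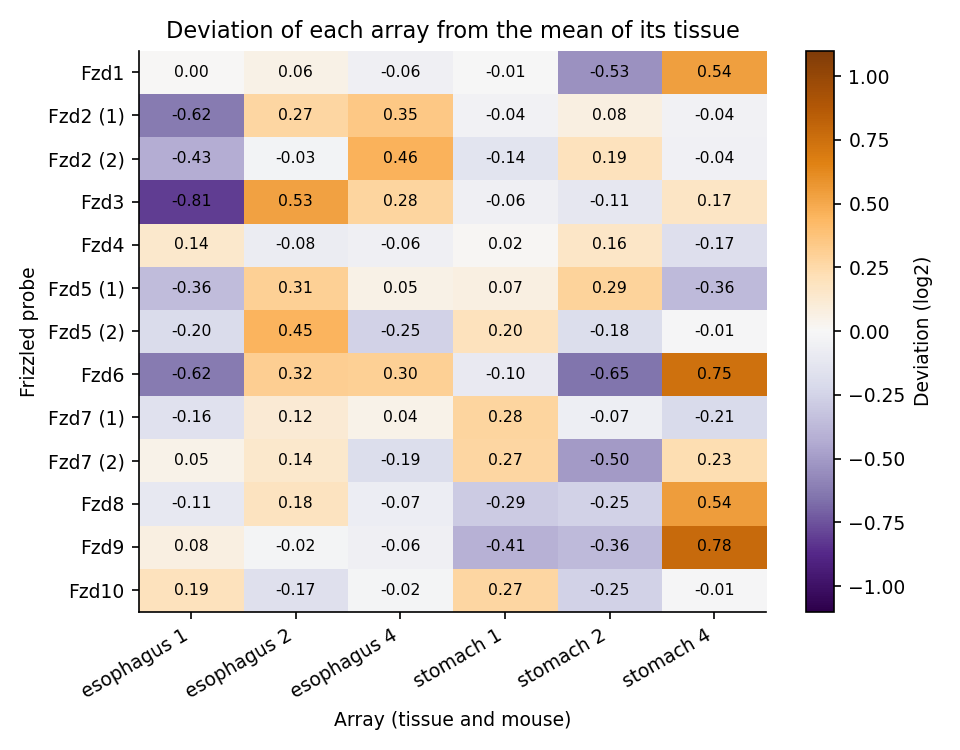
Deviation of each array (columns) from the mean of its tissue for each Frizzled probe (rows, numbered as in the plot of values) in log2 units, printed in each cell and coloured from purple (below the mean) to orange (above it). Stomach 4 is high for Fzd1, Fzd6, Fzd8 and Fzd9 and esophagus 1 is low for Fzd2, Fzd3 and Fzd6.

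Genes whose pattern over the 6 arrays was most like that of a called Frizzled probe were found by the root mean square difference of log2 values after each probe was centred on its own mean, over 20870 candidate probes. For Fzd10 these were Hoxb4 (0.12), Galnt18 (0.16) and Pi15 (0.17), and for Fzd4 they were Prag1 (0.08), Vtcn1 (0.10) and Pnck (0.10). For Fzd1 they were Ppp1r2 (0.11), Usp31 (0.12) and Slc7a11 (0.13), and for Fzd5 Pde4d (0.10), Zfp703 (0.12) and Fhad1 (0.13). Fzd2 was nearest to Zfp385a (0.10), Ltb4r2 (0.11) and a transcript without a symbol (0.11). The distances of Fzd6 were the largest, with Rbl1 (0.19), Nanos1 (0.22) and Tmem121 (0.22). Most of each likeness is the shared difference between the tissues, and nothing about function follows from it.

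The WNT genes that act around the Frizzled receptors were read in 10 lists with 87 genes on the array, of which 21 had a probe higher in esophagus and 12 a probe higher in stomach organoids. Over all gene names these shares were 7.88% and 8.33%. Of the 87 genes, 55 had a brightest probe that was detected, and on that probe 20 were higher in esophagus and 12 in stomach organoids, beside 12.8% and 13.9% of all gene names of this kind.

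Of 8 co-receptors and alternative WNT receptors, 1 was higher in esophagus and 2 in stomach organoids. Among the 6 with a detected brightest probe the counts were the same, beside 12.8% and 13.9% of all gene names of this kind. No direction of the list is read from counts this small. Ror2, a receptor tyrosine kinase with a Frizzled-type cysteine-rich domain that binds WNT5A, had a mean of 10.19 in stomach organoids and stayed at background in esophagus organoids (5.29), so that it was at least 29.5-fold higher in stomach organoids (adjusted p = 1.26e-06). Such a bound holds for the authors' background correction, and with an offset of 50 in the correction, which compresses low values, it was 15.8-fold for Ror2. Ptk7, a pseudokinase of the planar polarity pathway, was higher in esophagus organoids by 1.88 on the log2 scale (adjusted p = 0.000197). Lrp6 had a difference of -0.64 that passed narrowly (adjusted p = 0.0295), its second probe did not (-0.51, adjusted p = 0.122), and with the mouse as a block the call was lost (adjusted p = 0.0739). It was lost too without any single array other than esophagus 2, at adjusted p from 0.0568 to 0.126. Lrp5 (-0.70, adjusted p = 0.152), Ryk (0.78, adjusted p = 0.122) and Mcam did not pass, although Ryk did without stomach 4 (1.07, adjusted p = 0.0172). Neither probe of Ror1 was above background.

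Genes that set how much Frizzled stays at the surface were higher in stomach organoids where they passed, 3 of 9 against 0 of 9. Rnf43, the ligase that removes Frizzled from the membrane, had a mean of 10.84 in esophagus and 12.71 in stomach organoids (difference -1.86, adjusted p = 0.000252). Lgr4 had 7.41 and 9.69 (adjusted p = 0.000167), and Lgr5, the R-spondin receptor that marks stem cells of the gut, was at least 38.6-fold higher in stomach organoids (10.32, not well above background in esophagus organoids; adjusted p = 2.04e-05), or at least 17.8-fold with the offset of 50. A second Lgr5 probe was on no array well above background (-0.13, adjusted p = 0.779). The fitted Lgr5 difference ran from -8.47 to -2.74 over the alternatives. Znrf3 did not pass (0.53, adjusted p = 0.396). Lgr6 and the R-spondin genes Rspo1 to Rspo4 were on no array well above background. By the culture methods, R-spondin1 was added to the stomach medium only.

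The partners of Fzd4 were read with it. Tspan12, its tetraspanin co-factor in Norrin signaling, was higher in stomach organoids as Fzd4 was, with a mean of 8.31 in esophagus and 10.05 in stomach organoids (difference -1.74, adjusted p = 0.00535). Ndp, which encodes Norrin, was on no array well above background. Reck, a co-factor of WNT7 signals, did not pass, and Adgra2 was well above background on 2 stomach arrays only, although each was called higher in stomach organoids under some alternatives (Reck under 3, on a probe at background, and Adgra2 under 2).

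The planar polarity partners of Fzd3 and Fzd6 were higher in esophagus organoids in 5 of 10 genes and in stomach organoids in none. The cadherins Celsr1 (1.27, adjusted p = 0.00419) and Celsr2 (2.63, adjusted p = 0.000105), the membrane proteins Vangl1 (0.70, adjusted p = 0.0261) and Vangl2 (1.78, adjusted p = 0.00195) and the adaptor Prickle3 (1.17, adjusted p = 0.0169) passed, and Prickle1 did not. Celsr3, Prickle2, Prickle4 and Ankrd6 were at background throughout. A second Celsr2 probe gave 1.07 (adjusted p = 0.00845), and the Celsr2 difference ran from 1.85 to 2.79 over the alternatives. A second Vangl1 probe gave 0.70 as well (adjusted p = 0.0175). With the mouse as a block the brighter Vangl1 probe was just above the threshold (adjusted p = 0.0504) and the second just below it (0.0499). Both lost their calls without esophagus 2 (adjusted p = 0.0874 and 0.0588) and without stomach 1 (0.116 and 0.0714). Without esophagus 2 the call of Prickle3 was lost too (adjusted p = 0.0528), which left 3 of the 10 genes.

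Among the ligands, 7 of 19 WNT genes were higher in esophagus and none in stomach organoids. Wnt4 had a mean of 13.89 in esophagus and 6.96 in stomach organoids (difference 6.93, adjusted p = 3.10e-07) and Wnt10a had 14.10 and 9.03 (5.07, adjusted p = 1.40e-06). A second Wnt4 probe gave 5.44 (adjusted p = 2.32e-06), and the Wnt4 difference ran from 6.18 to 7.31 over the alternatives. Wnt9a (2.87, adjusted p = 0.00170; 2.25 to 3.96 over the alternatives, with 2 stomach arrays above background) and Wnt7b (1.16, adjusted p = 0.0296) passed as well, but Wnt7b lost its call with the mouse as a block (adjusted p = 0.0536) and on leaving out any 1 array other than esophagus 1 (adjusted p from 0.0593 to 0.0973). Wnt6 was not well above background in stomach organoids and was at least 13.9-fold higher in esophagus organoids, and the same bound was 2.14-fold for Wnt3a and 2.09-fold for Wnt5b. With the offset of 50 these bounds were 6.48-fold, 1.38-fold and 1.58-fold. Wnt5a and Wnt11 were measured and did not pass.

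Secreted and membrane antagonists of WNT reception followed no single direction. Sfrp1, a secreted protein with a Frizzled-type domain, was higher in esophagus organoids (7.44 against 5.28, adjusted p = 6.94e-05), though on 1 stomach array only was it well above background and the log2 difference ran from 1.48 to 3.79 over the alternatives. Sfrp2, Sfrp4, Sfrp5 and Frzb were at background throughout. In the list of 8 Dickkopf, sclerostin and Kremen genes, most of them known as antagonists of LRP or their receptors, Dkk3 (1.89, adjusted p = 0.00117), Kremen1 (1.21, adjusted p = 0.00611) and Sostdc1 (at least 7.59-fold, adjusted p = 0.00702) were higher in esophagus organoids and Kremen2 was higher in stomach organoids (-2.75, adjusted p = 8.90e-05; -3.96 to -2.09 over the alternatives, with 2 esophagus arrays above background). Dkk3 is a divergent Dickkopf gene that is not known to act on LRP as Dkk1 does. The Sostdc1 bound was carried by esophagus 1, at 9.02 beside 7.16 and 6.76 on the other esophagus arrays, and it was 4.71-fold without that array and 3.51-fold with the offset of 50. Its second probe gave at least 5.73-fold. Downstream of the receptors, 2 of 9 genes of the Dishevelled and Axin complex were higher in esophagus organoids, Dvl2 (0.96, adjusted p = 0.00461) and Csnk1a1 (1.18, adjusted p = 0.00573). All 9 had a detected brightest probe, and over all gene names of this kind the share was 12.8%. A second, dimmer Dvl2 probe, well above background on 2 arrays of each tissue, did not pass (0.13, adjusted p = 0.682). Dvl1, Dvl3, Axin1, Apc, Gsk3a, Gsk3b and Ctnnb1 did not pass. Smo, the Hedgehog signal transducer of the same receptor class, had 2 probes that disagreed, one called higher in esophagus organoids (2.35, adjusted p = 0.000117) and one that did not pass (-0.999, adjusted p = 0.0863) but was called higher in stomach organoids without stomach 4 (-1.31, adjusted p = 0.0176).

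Known transcriptional targets of β-catenin were higher in stomach organoids in 7 of 17 genes, of which Lgr5 and Rnf43 were counted above too. Axin2, a negative regulator that the pathway induces, had a mean of 5.17 in esophagus and 7.72 in stomach organoids (difference -2.56, adjusted p = 0.000639). It was well above background on 1 esophagus array. A second Axin2 probe, well above background on 1 stomach array only, did not pass (-0.42, adjusted p = 0.318). The size of the Axin2 difference is not firm (-3.97 to -1.49 over the alternatives, probe averaging included, past the threshold in each). The transcription factor Sp5 was at least 64.6-fold higher in stomach organoids (adjusted p = 7.20e-07), or at least 28.8-fold with the offset of 50. Sox9 (-3.09, adjusted p = 0.00263), Tnfrsf19 (-2.14, adjusted p = 0.0113) and Ascl2 (-2.09, adjusted p = 0.00240) also passed. A second probe of Tnfrsf19 (-0.23, adjusted p = 0.616) and one of Ascl2 (0.11, adjusted p = 0.719) did not pass. Over the alternatives the differences ran from -2.52 to -1.18 for Tnfrsf19 and from -2.32 to -0.99 for Ascl2. Cd44 was called higher in esophagus organoids on 3 of 4 probes (1.42 to 1.67), but not on its brightest (adjusted p = 0.153). Without stomach 1 or without stomach 2 no Cd44 probe was called, the lowest adjusted p being 0.0520 and 0.0556. Myc, Ccnd1, Tcf7, Ephb2, Ephb3, Notum and Znrf3 did not pass.

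**Figure D4:**
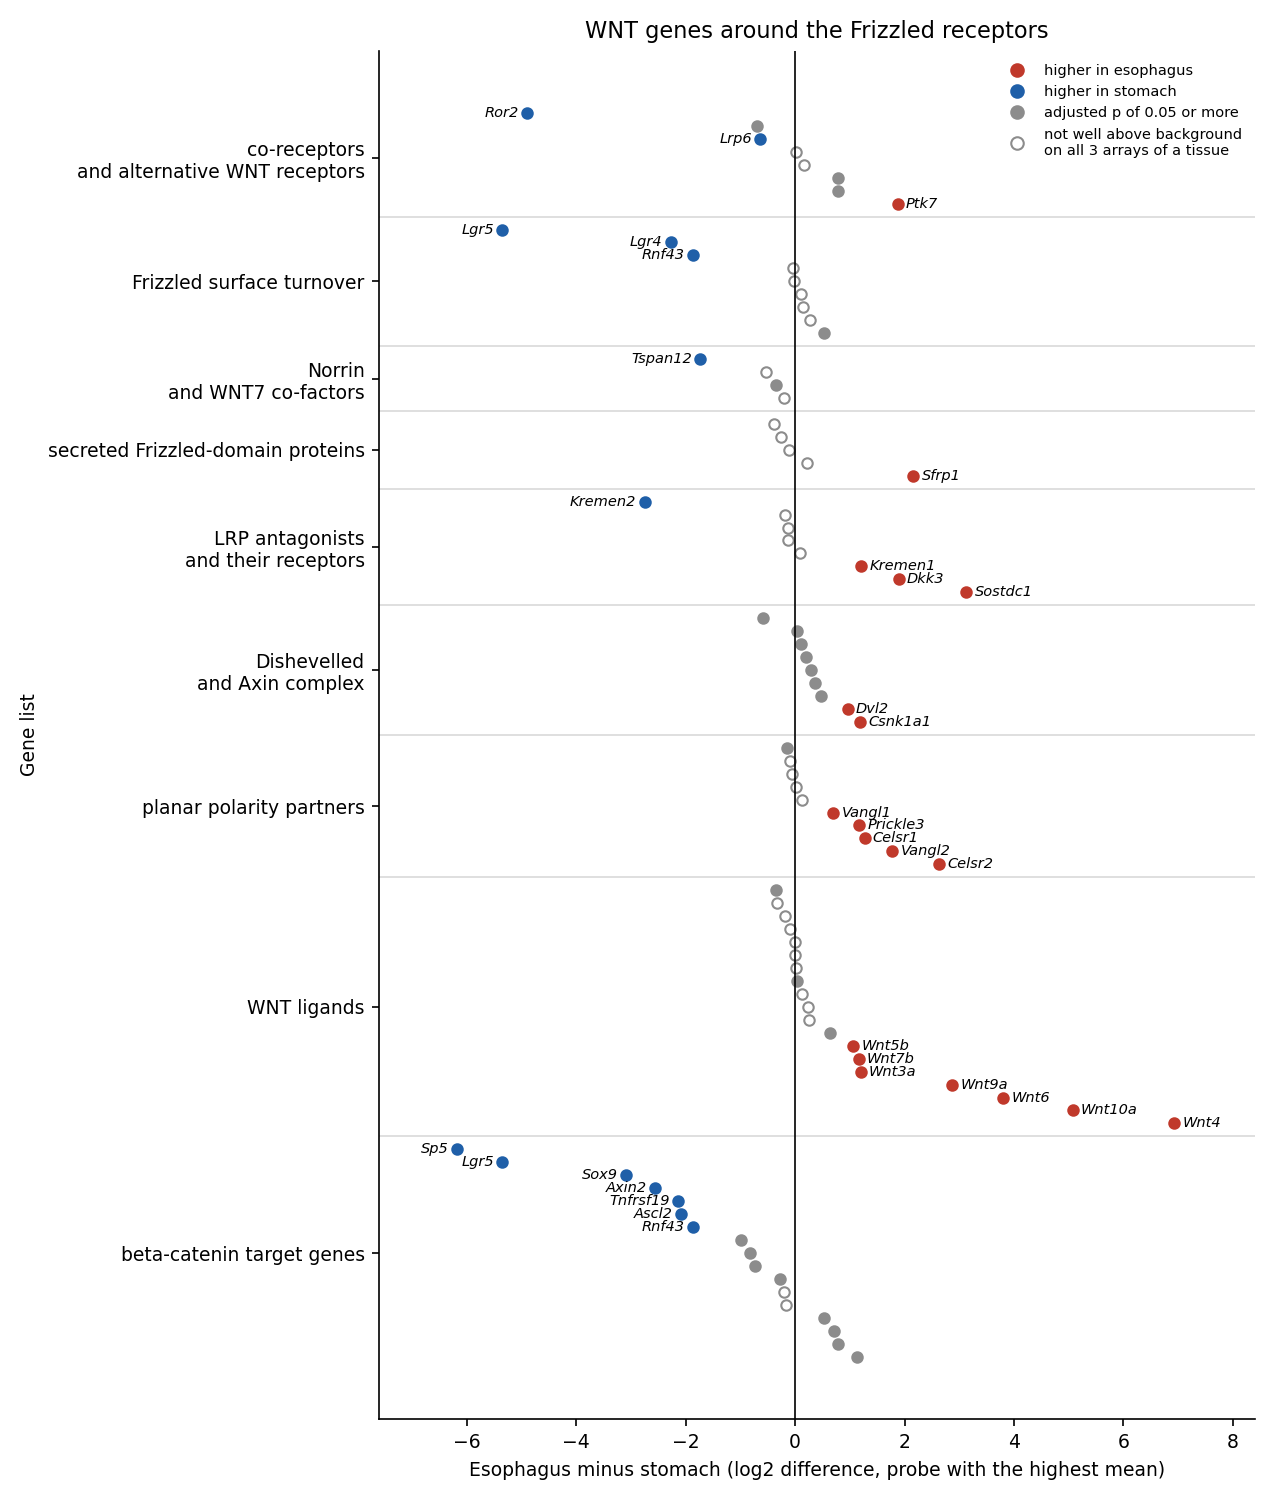
Difference between esophagus and stomach organoids in log2 units (horizontal axis) for the brightest probe of each gene in 9 lists around the Frizzled receptors, 1 point per gene, named where the adjusted p was under 0.05, with open points for genes that were not detected. Called WNT ligands and planar polarity partners lie on the esophagus side and called surface turnover genes on the stomach side; genes not well above background in 1 tissue are drawn at the fitted difference, for which the text gives a bound, and Smo, a list of its own, is not drawn.

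Markers of 4 other cell types were read beside these results. A further list, of enteric glia and neurons, had summed signals that did not overlap between the tissues. Its values are not reported here, and its part in these results was not tested. The 7 fibroblast markers had 0 to 1 well above background on esophagus arrays and 1 to 2 on stomach arrays, with a summed signal of 197.0 to 235.4 and 227.1 to 242.1, and Pdgfra, Pdgfrb and Lum were on no array above it. Of 4 smooth muscle markers 2 were above background on esophagus 2 and none on any other array. Of 5 immune markers 3 were above background on every array (summed signal 4081 to 28510 in esophagus and 2590 to 5889 in stomach organoids), mostly Cd68, while Ptprc and Ms4a1 were not on any. Of 4 endothelial markers 2 to 3 were above background (458.0 to 664.2 and 517.3 to 550.6), with Cdh5 on no array.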

How the data were processed

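RNA of 6 organoid cultures was labelled with a single color and hybridized to Agilent SurePrint G3 mouse arrays. The authors read the intensity of each spot with Agilent Feature Extraction (named in the submitters' processing notes; version 11.5.1.1 per the file headers). Main values were taken from the authors' deposited log2 table, which holds intensities after their background correction and quantile normalization. It was matched by normexp with an offset of 15 on median intensities followed by quantile normalization (median absolute difference 0.00433, largest 0.0726). Its empty cells are outlier-marked spots.

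Spots of a probe were averaged. In R 4.3.3 with limma 3.58.1, lmFit and eBayes compared 3 esophagus with 3 stomach arrays over 55681 probes, two-sided, with Benjamini-Hochberg adjustment over all of them, and the standard errors and intervals are those of this fit. With 3 arrays per tissue an exact permutation test could not go below p = 0.10. The script was tested on simulated data. A probe not well above background (the software's mark) on all arrays of a tissue was given a bound only, computed against the mean, over the arrays of that tissue, of the higher of its own value and the array's lowest value well above background. Depth of an array is not a count, and the number of arrays limits the precision. Gene names and coordinates (mm9) are those of the files, and all 10 symbols matched RefSeq.

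A replicate number was read from the labels as an animal, which pairs an esophagus with a stomach array. The array methods do not state that both tissues came from the same animals. Departures from the mean of the tissue correlated, within a pair, at 0.025, 0.0119 and -0.00787, and at -0.0726 to 0.0405 for arrays that share no mouse (all across probes). Blocking on the mouse was tried as an alternative. Esophagus 4 lay alone on the second slide, so the slide as a block equals leaving it out. The other alternatives were scanner intensities with other background corrections and scalings, a filter on dim probes, other variance settings, each array left out, the methods' thresholds (1.5-fold, unadjusted p) and averaging the probes of a gene. The members, the lists and the tests were chosen with earlier results of these data known. By rule every Frizzled probe is named, and of the lists the called genes and a fixed set of receptors and co-factors. Columns of the authors' own comparisons were not used. The result of 1 list of cell type markers is not reported here.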

Additional observations from a re-analysis of the deposited data

How the results depend on the processing

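Fzd1, Fzd2 (A_51_P404077), Fzd4, Fzd5 (A_66_P128199) and Fzd10 kept their direction and passed the threshold under each of the 17 alternatives. With the mouse as a replicate block, the counts were 4 Frizzled probes higher in esophagus and 2 in stomach organoids, as without it, and 20 and 11 genes of the WNT lists in place of 21 and 12, and of the genes named with a value Lrp6 and Wnt7b lost their calls and Vangl1 kept it on 1 of its 2 probes. The number of Frizzled probes higher in esophagus organoids was 3 to 6 when 1 array was left out, with 6 without stomach 4, and that in stomach organoids was 2 each time. For the genes of the WNT lists these ranges were 18 to 23 and 11 to 12. At the methods' thresholds read without adjustment, 5 Frizzled probes were higher in esophagus and 3 in stomach organoids (over all probes 9.28% and 8.85%), and 24 and 18 genes of the WNT lists. Fzd6 also lost its call with an offset of 50 (1.65, adjusted p = 0.0581), with quantile-normalized processed signal (1.86, adjusted p = 0.0919) and with the slide as a block (1.57, adjusted p = 0.0709). The difference of Fzd3 turned negative with an offset of 16 (-0.004392, or -0.000991 with outlier spots kept), with processed signal scaled to the 75th percentile (-0.058) or quantile normalized (-0.025), with the slide as a block and without esophagus 4 (-0.11 in both), and without esophagus 2, stomach 1 or stomach 2 (-0.24, -0.000428 and -0.029; range -0.24 to 0.43 over the arrays left out). Ndp, at background, turned positive with quantile-normalized processed signal (0.016) and Ror1 turned negative without esophagus 2 (range -0.031 to 0.45 over the arrays left out). Scaling to the 75th percentile moved the median of all probes to 0.19, against 0.01 to 0.03 for the other scalings. Smo lost its call when its probes were averaged (0.67, adjusted p = 0.0776), which also turned the sign of its second probe. With processed signal scaled to the 75th percentile the calls of Dvl2, Vangl1 and Lrp6 were lost (adjusted p = 0.0528, 0.0738 and 0.522), with it quantile normalized those of Prickle3, Wnt7b and Cd44 (adjusted p = 0.0706, 0.0540 and, at the lowest of its probes, 0.0604), and with mean signals and an offset of 50 that of Wnt7b and of the brighter Sostdc1 probe (adjusted p = 0.0727 and 0.0584). Lrp6 lost its call with trended robust variances too (adjusted p = 0.0852). Counted on any probe, the other called genes of the lists passed under each of the 17 alternatives, apart from the losses on leaving out 1 array given with Lrp6, Vangl1, Prickle3, Wnt7b and Cd44. Of genes that did not pass, Mcam and Ephb3 were called higher in esophagus organoids without stomach 4, Mcam and Myc without esophagus 4, and Ephb2 was called higher in stomach organoids without stomach 1. Mcam and Ephb3 were also called with trended robust variances, Gsk3a, higher in esophagus organoids, with the offset of 50 and with quantile-normalized processed signal, Adgra2, higher in stomach organoids, with both scalings of processed signal, and Sfrp5, which was at background, with the 75th percentile. Reck was called with an offset of 16, with outlier spots kept and with trended robust variances. The causes were not tested. Signal over background limits the second Fzd2 probe, the first Fzd7 probe and Fzd10 in stomach organoids.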
